A study of Mus musculus with 10 samples.

Results

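The TRIM genes were followed in mouse acute lymphoblastic leukaemia cells taken from animals that had received allogeneic or syngeneic donor cells. Members were all genes whose single symbol in the platform annotation is Trim followed by a number with an optional letter. There were 58 such genes among 18193 measured genes, and for each the probe set with the highest mean log2 signal over the 10 arrays was used. The symbol rule and the choice of probe set did not use the comparison between groups, but the family was chosen with earlier results of these data known. Of the 58 genes, 31 had more than 1 probe set.

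The allogeneic group held leukaemia from the bone marrow of 5 animals given C3.SW marrow and spleen cells. The syngeneic group held leukaemia from the bone marrow of 5 animals given C57BL/6 marrow and spleen cells. All 10 recipients were C57BL/6 mice prepared with total body irradiation and 5-fluorouracil, and in both groups the leukaemia was of C57BL/6 background, carried human p210 bcr/abl and had a deletion in the Ink4a/Arf locus. Leukaemia cells were passed through 3 serial transplants of 2 to 3 weeks each, sorted on green fluorescent protein and measured on 1 Affymetrix array per animal. The ages of the animals are not given. The labels do not say whether animals of a group shared a donor of leukaemia cells in an earlier passage. A p-value here sets a group difference against the spread within groups, for these 10 animals only. If animals of a group shared such a donor, that spread could understate the error.

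TRIM proteins share a tripartite motif of a RING finger, 1 or more B-boxes and a coiled coil, followed by a C-terminal part that differs between subfamilies. The RING finger recruits a ubiquitin-conjugating enzyme, which makes most members E3 ubiquitin ligases, and the C-terminal part chooses the substrate. Several members with a PRY-SPRY domain are induced by interferon and act in antiviral defence, while members with a PHD finger and bromodomain act on chromatin as transcriptional co-repressors.

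The labelled cell type was borne out by its markers. Of 14 measured B-lymphoid progenitor genes, 13 were above background on all 10 arrays, and Pax5 was above it on 2 of 5 allogeneic and 4 of 5 syngeneic arrays. Background was a limit set on each array, the 95th percentile of its 27 bacterial control probe sets, which lay between 4.50 and 5.32 on the log2 scale. Between 11224 and 13094 genes per array exceeded it. The lower quartile of the deposited intensities was higher on the arrays of allogeneic animals 1, 3 and 4 (18.7 to 19.5) than on the other 7 (13.8 to 14.4), before quantile normalization. In bulk RNA of sorted cells, fewer cells of a type and less RNA per cell cannot be told apart.

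TRIM transcripts were widely detected in this leukaemia. Of the 58 members, 32 were above background on every array, 13 on some arrays and 13 on none, and each array had between 37 and 43 members above the limit. The share detected on all arrays was 55.2% of TRIM genes and 57.5% of all genes. By domain class, 18 of the 28 genes with a RING finger and PRY-SPRY domain were above background on all arrays. So were 3 of 4 genes with NHL repeats (Trim3, Trim32 and Trim71), and 3 of 4 with a PHD finger and bromodomain (Trim24, Trim28 and Trim33). The 2 measured muscle genes of the COS box class, Trim54 and Trim63, were not above background on any array. The other 11 members that stayed at background throughout were Trim10, Trim15, Trim29, Trim31, Trim40, Trim42, Trim43a, Trim60, Trim68, Trim75 and Trim80.

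No TRIM gene passed the test between allogeneic and syngeneic leukaemia. By limma with Benjamini-Hochberg adjustment over all genes, 0 of 58 members were called at an adjusted p under 0.05, where 0.583% of all 18193 genes were called, 0.506% higher and 0.0770% lower in allogeneic samples. At an unadjusted p under 0.05, 12 members were counted, 5 with a higher and 7 with a lower allogeneic mean, which is 20.7% of the members against 16.9% of all genes. The 5 were Trim21, Trim30d, Trim12a, Trim12c and Trim34a, or 8.62% of members against 9.47% of all genes. The 7 were Trim2, Trim16, Trim33, Trim39, Trim46, Trim68 and Trim80, or 12.1% of members against 7.40% of all genes. The allogeneic and syngeneic values did not overlap for 2 members, 3.45% of them against 4.83% of all genes. Trim21 lay above (2.94% of all genes did) and Trim2 below (1.90% did). The median log2 difference, allogeneic minus syngeneic, was -0.11 over the members and 0.01 over all genes, and 25 of 58 members had a positive difference against 51.2% of all genes. Without quantile normalization the median was 0.034 over the members and 0.055 over all genes, and with median centring it was -0.00057 over the members and 0.021 over all genes.

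**Figure D1:**
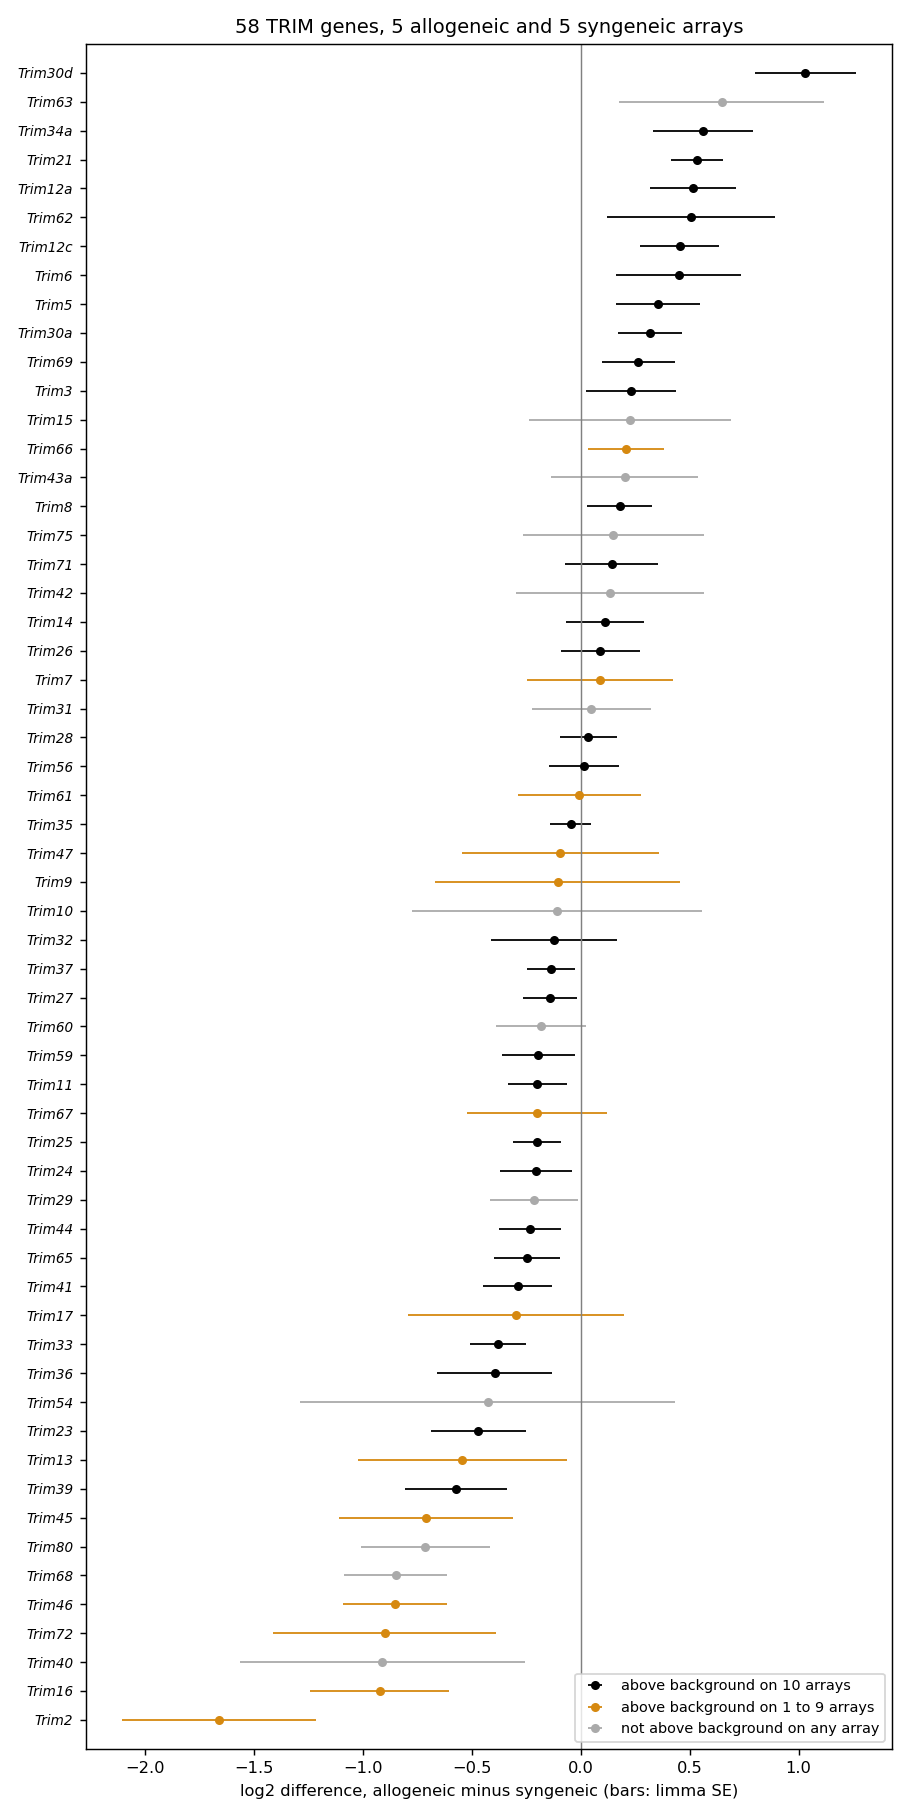
Log2 difference in array signal, allogeneic minus syngeneic, for each of the 58 TRIM genes, with limma's SE as bars and colours for the number of arrays above background. Trim30d is highest at 1.03 and Trim2 lowest at -1.66, and the 8 most negative values belong to genes that were at background on some or all arrays.

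A run of neighbouring PRY-SPRY genes on chromosome 7 shared a positive difference. In the gene order of the GRCm38.p6 annotation, Trim6, Trim34a, Trim5, Trim12a, Trim12c, Trim30a and Trim30d lie in 1 stretch together with Trim34b, Trim30b and Trim30c, which were not measured by a probe set with a single symbol. All 7 were above background on every array. All 7 had higher means in allogeneic leukaemia, with log2 differences from 0.32 to 1.03 and a median of 0.45, while the 51 other members had a median of -0.14 and 18 positive differences. None of the 7 passed the test over all genes, and 4 had a higher allogeneic mean with an unadjusted p under 0.05 by limma, against 9.47% of all genes. Without allogeneic animal 1, the unadjusted p of these 4 by limma was 0.0021 for Trim30d, 0.062 for Trim12a, 0.074 for Trim12c and 0.082 for Trim34a. Of the 4, only Trim30d thus stayed under 0.05. With all 10 arrays, a positive difference was found in 51.2% of all genes. These genes arose by duplication, so probes for one may also bind transcripts of another, and their 7 differences may not be separate measurements.

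Trim21 lies apart from that run on the same chromosome. It encodes a cytosolic receptor for the Fc part of antibodies that marks antibody-bound virus for degradation. Its log2 signal was 11.34, 11.77, 11.49, 11.67 and 11.46 in allogeneic animals 1 to 5 and 11.07, 10.94, 11.17, 10.86 and 11.00 in syngeneic animals 1 to 5. Every allogeneic value was above every syngeneic value. Its mean was 11.54 ± 0.17 in allogeneic and 11.01 ± 0.12 in syngeneic samples (SD, n = 5 each), a 1.45-fold difference (log2 0.53, SE 0.12), with the smallest p of any member by limma (adjusted p = 0.0821). Its other probe set differed by 0.42 (SE 0.15, adjusted p = 0.215) on the log2 scale.

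Trim30d, a close relative of Trim30a, had the largest positive difference of the 58 genes. Its log2 signal was 11.14, 10.21, 10.67, 10.61 and 9.96 in allogeneic animals 1 to 5 and 9.48, 9.26, 9.98, 9.30 and 9.43 in syngeneic animals 1 to 5. The groups overlapped only through allogeneic animal 5, which was just under syngeneic animal 3. The mean was 10.52 ± 0.45 in allogeneic and 9.49 ± 0.29 in syngeneic samples (SD, n = 5 each), a 2.04-fold difference (log2 1.03, SE 0.23, adjusted p = 0.0854 by limma). A fainter probe set of Trim30d differed by 0.38 (SE 0.23).

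Calls for these 2 genes turned on how the whole table was filtered and modelled. Trim21 and Trim30d were each called under 5 of 22 other settings, with adjusted p-values by limma from 0.0228 to 0.229 for Trim21 and from 0.0273 to 0.197 for Trim30d. With only genes above background on at least 3 arrays in the fit, adjusted p was 0.0400 for Trim21 and 0.0466 for Trim30d. Without allogeneic animal 1, Trim21 was called (log2 difference 0.59, adjusted p = 0.0319) and Trim30d was not (0.88, adjusted p = 0.0540).

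Trim30a encodes a protein that in mouse limits NF-kB signalling by promoting loss of TAB2 and TAB3. Its chosen probe set read 12.74, 12.43, 12.31, 12.55 and 12.09 in allogeneic animals 1 to 5 and 12.07, 12.08, 12.41, 11.91 and 12.05 in syngeneic animals 1 to 5, a log2 difference of 0.32 (SE 0.15, adjusted p = 0.314 by limma). Syngeneic animal 3 was inside the allogeneic range. The other Trim30a probe set, less bright, had means of 9.22 in allogeneic and 8.45 in syngeneic samples, a log2 difference of 0.77 (SE 0.18, adjusted p = 0.0972) with no overlap between groups.

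Trim12a, Trim12c and Trim5 are the mouse relatives of primate TRIM5, a capsid-binding factor that blocks retroviruses. Trim12a had log2 signals of 11.37, 11.15, 10.68, 11.11 and 10.63 in allogeneic animals 1 to 5 and 10.57, 10.42, 10.97, 10.22 and 10.21 in syngeneic animals 1 to 5 (difference 0.51, SE 0.20, adjusted p = 0.234 by limma). Trim12c had 10.84, 10.42, 10.51, 10.43 and 10.07 in the allogeneic animals and 10.08, 9.98, 10.40, 9.57 and 9.99 in the syngeneic animals (difference 0.45, SE 0.18, adjusted p = 0.253). In both genes the allogeneic values were mostly the higher ones, and syngeneic animal 3 stood among them. Trim5 had 9.34, 8.72, 8.34, 8.91 and 8.57 in the allogeneic animals and 8.51, 8.38, 8.60, 8.06 and 8.56 in the syngeneic animals, where the groups overlapped more widely (difference 0.35, SE 0.19, adjusted p = 0.386).

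Trim34a, another PRY-SPRY gene of the run, had log2 signals of 11.27, 10.89, 10.39, 10.79 and 10.32 in allogeneic animals 1 to 5 and 10.17, 10.13, 10.76, 9.74 and 10.05 in syngeneic animals 1 to 5. The difference was 0.56 (SE 0.23, adjusted p = 0.259 by limma), and its other probe set gave 0.52 (SE 0.20). Here 4 of 5 syngeneic values lay under every allogeneic one, and syngeneic animal 3 did not. Trim6, whose human counterpart makes free ubiquitin chains that activate the kinase IKK-epsilon, had 5.43, 5.60, 7.06, 5.93 and 6.00 in the allogeneic animals and 5.20, 5.36, 5.73, 5.62 and 5.85 in the syngeneic animals (difference 0.45, SE 0.29, adjusted p = 0.457). Its signal was nearer background than that of the other 6, and allogeneic animal 3 stood well above the rest.

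The same animals were at the extremes for most genes of the run. Allogeneic animal 1 was the highest of its group for 6 of the 7 genes, all but Trim6, and allogeneic animal 5 the lowest for 5. Syngeneic animal 3 was the highest of its group for 6 and syngeneic animal 4 the lowest for 4. The median deviation of the 7 genes from their syngeneic means was 0.89, 0.42, 0.22, 0.49 and 0.15 in allogeneic animals 1 to 5 and 0.0027, -0.040, 0.40, -0.26 and -0.052 in syngeneic animals 1 to 5. Syngeneic animal 3 thus stood above allogeneic animals 3 and 5 on this measure.

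**Figure D2:**
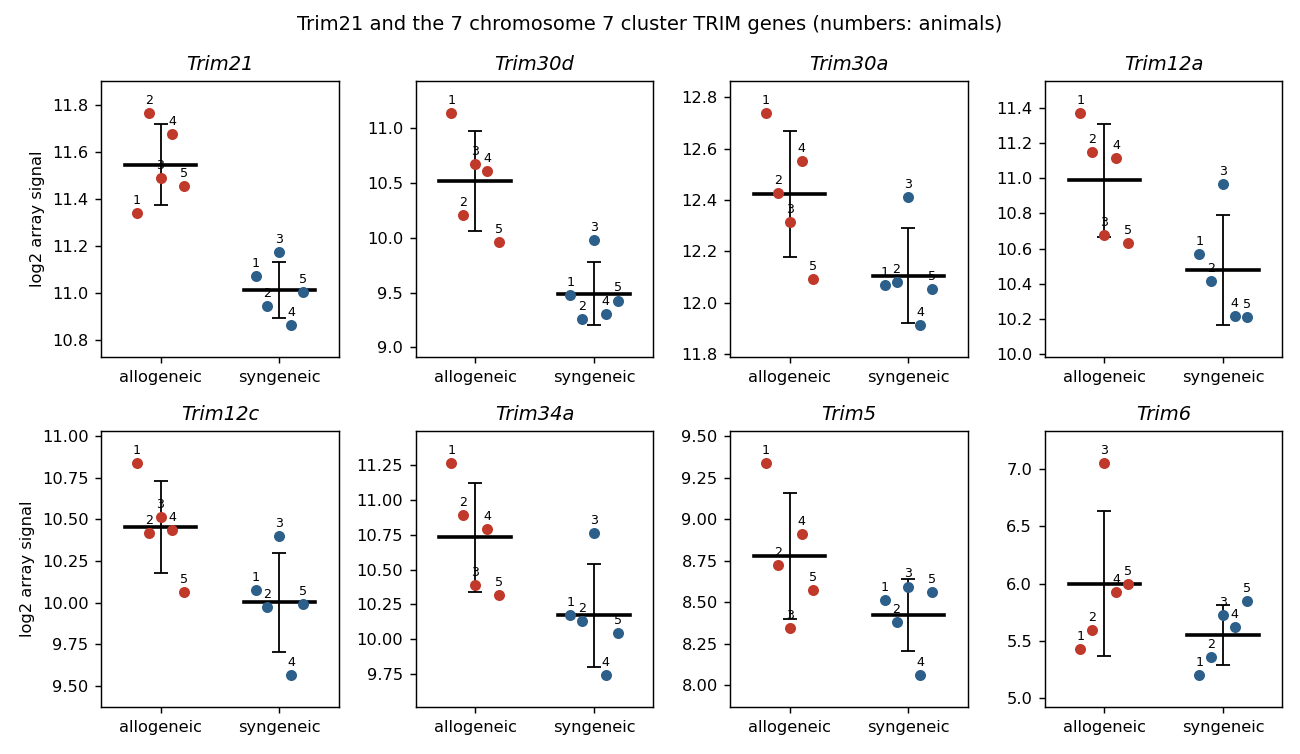
Log2 array signal of Trim21 and the 7 TRIM genes of the chromosome 7 run in each animal (points, numbered by animal), with group means and SD as bars. Trim21 is the only one of the 8 with no overlap, and allogeneic animal 1 and syngeneic animal 3 top their groups in Trim30d, Trim30a, Trim12a, Trim12c, Trim34a and Trim5.

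Promoters of the members were searched for GAAANNGAAA on either strand, the core that interferon regulatory factors and the ISGF3 complex recognise. Windows of 300 bases, from 250 before to 50 after the start of transcription, came from RefSeq with the GRCm38.p6 build, and 47 of the 58 members had one. The motif was in the window of 9 of these 47 genes (19.1%), against 1079 of 27025 genes with a window (3.99%). Counted by window, 3.44% of all 32851 held it, and a gene can have more than 1 window. Of the 9, 7 were Trim21, Trim30d, Trim30a, Trim12a, Trim12c, Trim34a and Trim5, and the remaining 2 were Trim26 and Trim2. The stretches around the matches are shown because they cover all but 1 of the 8 genes described so far, with at most 30 transcribed bases, 5′ to 3′ on the strand of the gene and with matching bases in capitals.
Trim21, chr7:102565453-102565494, minus strand: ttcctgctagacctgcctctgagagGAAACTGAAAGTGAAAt
Trim30d, chr7:104507856-104507915, minus strand: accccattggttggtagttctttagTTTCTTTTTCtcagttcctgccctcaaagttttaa
Trim30a, chr7:104465195-104465254, minus strand: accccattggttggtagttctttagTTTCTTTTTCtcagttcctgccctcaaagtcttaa
Trim12a, chr7:104315466-104315510, minus strand: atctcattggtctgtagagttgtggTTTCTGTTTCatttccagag
Trim12c, chr7:104353344-104353403, minus strand: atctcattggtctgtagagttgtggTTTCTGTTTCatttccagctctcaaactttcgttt
Trim5, chr7:104288121-104288180, minus strand: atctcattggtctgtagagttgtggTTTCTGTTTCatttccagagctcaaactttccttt
Trim34a, chr7:104244442-104244486, plus strand: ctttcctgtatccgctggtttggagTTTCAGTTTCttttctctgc
Trim26, chr17:36836961-36837026, plus strand: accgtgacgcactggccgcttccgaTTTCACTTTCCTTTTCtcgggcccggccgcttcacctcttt

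Trim21 and Trim26 each held 2 overlapping matches. The Trim21 match began 14 bases into the transcript and was the only one on the coding strand. Counted from the start of transcription, the matches lay at -41 to -32 in Trim30d, -36 to -27 in Trim30a, -29 to -20 in Trim12c, -49 to -40 in Trim5 and -160 to -145 in Trim26. Those of Trim12a and Trim34a lay at 11 to 20, within the transcript. The window at a further start of Trim30a also held a match, at 3 to 12. Over 60 bases around the match, Trim12a and Trim5 were identical, Trim12c differed from them by 3 bases, and Trim30a differed from Trim30d by 1. Trim34a differed from Trim5 by 33 of 60.

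Members with the motif had a median log2 difference of 0.45, with 8 of 9 positive, and the 38 members with a window but no match had a median of -0.13, with 14 positive. The exception was Trim2, with a match at bases 29 to 38 of the transcript and the most negative difference. All of the 9 but Trim21, Trim26 and Trim2 belong to the chromosome 7 run described above, and some of those promoters are near copies. The split by motif thus largely repeats the differences of that run, and the search was made after they were seen. Trim26, which in mouse and human acts on the transcription factor IRF3, differed by 0.09 (SE 0.18) with allogeneic values between 8.77 and 9.72 and syngeneic values between 9.05 and 9.42. Trim6 had no match in its window, and a match or its absence is a description of these letters only.

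Trim25, Trim14 and Trim56 also have roles in antiviral signalling. Trim25, which ubiquitinates the RNA sensor RIG-I in human cells, had 11.53, 11.39, 11.56, 11.27 and 11.19 in allogeneic animals 1 to 5 and 11.49, 11.59, 11.57, 11.71 and 11.59 in syngeneic animals 1 to 5, a log2 difference of -0.20 (SE 0.11, adjusted p = 0.386 by limma). Its other 2 probe sets gave -0.048 and 0.28, so no direction is given for Trim25. Trim14, an adaptor of the signalling protein MAVS in human cells, differed by 0.11 (SE 0.18) and its other probe set was not above background in either group. Trim56, linked in human cells to STING and TLR3 signalling, differed by 0.014 (SE 0.16). A p that misses the threshold does not show equal levels.

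**Figure D3:**
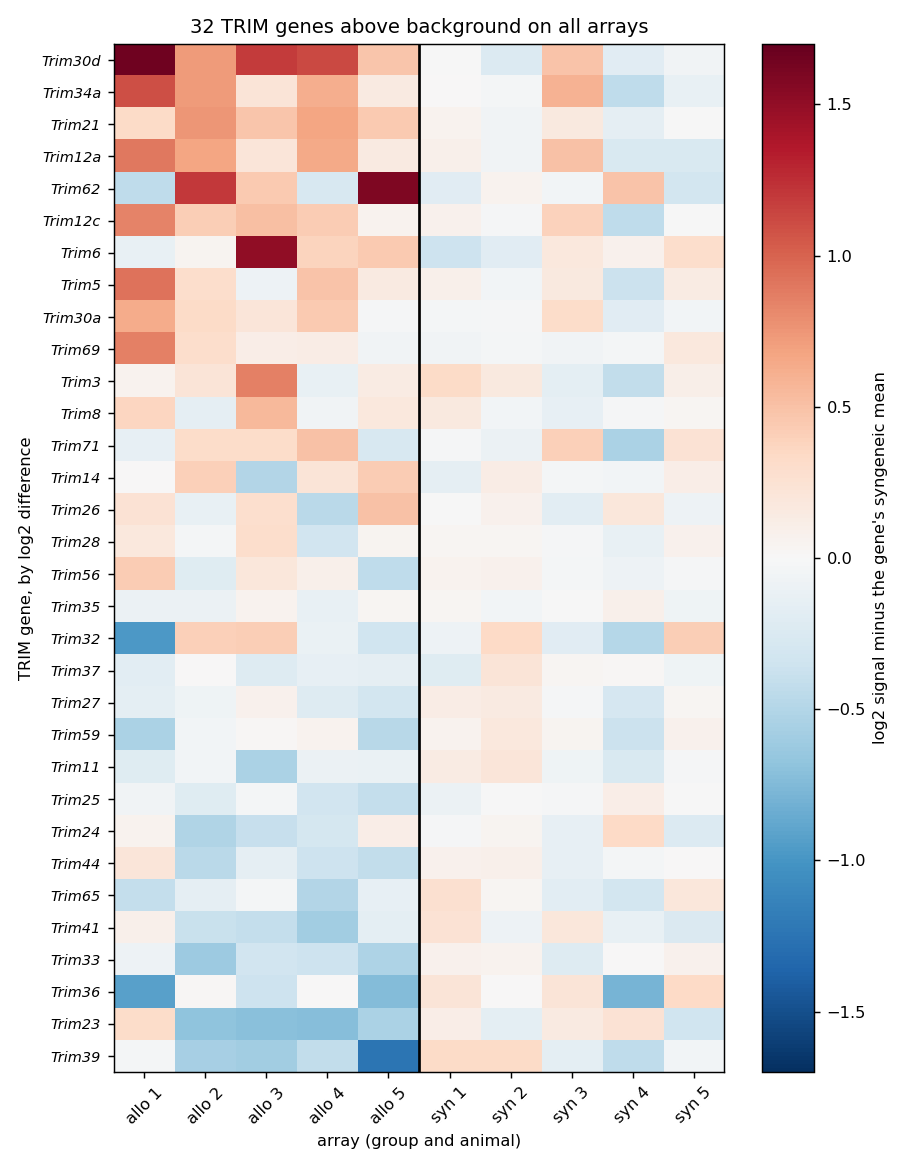
Log2 signal of the 32 TRIM genes above background on all arrays, minus each gene's syngeneic mean, with 1 column per array and genes ordered by their difference. Red marks the upper rows in the allogeneic arrays, where Trim30d, Trim34a, Trim21 and Trim12a stand, and syngeneic animal 3 is also red in Trim34a (10.76) and Trim12a (10.97).

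Trim23, with a lower allogeneic mean, was decided by 1 animal. It encodes a ligase with an ARF-type GTPase domain. Its log2 signal was 10.50, 9.50, 9.48, 9.47 and 9.65 in allogeneic animals 1 to 5 and 10.30, 10.02, 10.34, 10.43 and 9.86 in syngeneic animals 1 to 5. Allogeneic animal 1 alone was above the syngeneic range, and the other 4 were all under it. The log2 difference was -0.47 (SE 0.22, adjusted p = 0.310 by limma) with all animals and -0.67 (SE 0.14, adjusted p = 0.0410) without allogeneic animal 1. That animal had the highest value of the lower group, so leaving it out could only widen the difference. A different probe set of Trim23 had means of 8.66 in allogeneic and 9.25 in syngeneic samples, a difference of -0.60 (SE 0.15, adjusted p = 0.112), with no overlap over all 10 arrays. The last of its 3 probe sets gave -0.14 (SE 0.58).

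Without allogeneic animal 1, 3 of 58 members were called, or 5.17%, against 3.50% of all genes. They were Trim21, higher as were 2.00% of all genes, and Trim23 and Trim68, lower as were 1.50% of all genes. At an unadjusted p under 0.05, 13 members were counted against 22.0% of all genes, 2 higher against 12.7% and 11 lower against 9.29%. Leaving out 1 animal at a time gave 55 to 636 calls over all genes, the most with allogeneic animal 1 left out. Trim23 and Trim68 were called under no other setting, so their calls depend on which animal is removed. Trim68, a PRY-SPRY gene, had 3.22, 2.16, 2.56, 2.85 and 2.48 in allogeneic animals 1 to 5 and 3.85, 3.13, 3.63, 3.84 and 3.07 in syngeneic animals 1 to 5. It was not above background on any array, so no fold is given for it. With all 10 arrays its adjusted p was 0.140 by limma.

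Trim33 encodes a co-repressor of the PHD finger and bromodomain class that also acts on SMAD signalling. It had 10.68, 10.15, 10.44, 10.42 and 10.25 in allogeneic animals 1 to 5 and 10.84, 10.83, 10.56, 10.78 and 10.84 in syngeneic animals 1 to 5. Allogeneic animal 1 was the only allogeneic value above a syngeneic one, that of syngeneic animal 3. The log2 difference was -0.38 (SE 0.13, adjusted p = 0.184 by limma), and both other probe sets of Trim33 were negative, at -0.56 (SE 0.19, groups without overlap) and -0.82 (SE 0.40).

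The PHD finger and bromodomain class has 3 other members, of which Trim66, at background on 3 of 10 arrays, differed by 0.21 (SE 0.18). Trim28, which silences retroelements together with KRAB zinc finger proteins, had 12.58, 12.37, 12.69, 12.07 and 12.44 in the allogeneic and 12.43, 12.43, 12.37, 12.27 and 12.47 in the syngeneic animals. Its syngeneic values lay inside its allogeneic range. The difference was 0.035 (SE 0.13, adjusted p = 0.924 by limma), -0.018 without quantile normalization and -0.20 (SE 0.15) with its other probe set, so its sign is not settled. Trim24, a co-regulator of retinoic acid receptors, differed by -0.21 (SE 0.16). The difference between Trim33 and these genes was not tested.

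Trim39 encodes a PRY-SPRY ligase that in human cells acts on the apoptosis regulator MOAP-1. Its 1 probe set read 9.80, 9.26, 9.23, 9.41 and 8.58 in allogeneic animals 1 to 5 and 10.16, 10.15, 9.66, 9.40 and 9.78 in syngeneic animals 1 to 5, a log2 difference of -0.57 (SE 0.23, adjusted p = 0.256 by limma). Allogeneic animal 5 was the lowest and allogeneic animal 1 the highest of its group, and the groups overlapped. Trim41, another PRY-SPRY ligase, differed by -0.29 (SE 0.16), while a fainter probe set of Trim41 gave -1.26 (SE 0.30, adjusted p = 0.101) with no overlap and 3 of 5 allogeneic arrays above background. Trim44, which lacks a RING finger, differed by -0.23 (SE 0.14), with probe sets on both sides of 0 (-1.03 and 0.21).

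The most negative differences came from probe sets near background. Trim2, a ligase with NHL repeats known for its role in neurons, had 4.25, 6.21, 6.06, 5.76 and 4.27 in allogeneic animals 1 to 5 and 6.99, 6.50, 7.20, 6.51 and 7.66 in syngeneic animals 1 to 5. It exceeded background on 3 of 5 allogeneic and 5 of 5 syngeneic arrays, and the groups did not overlap. The log2 difference was -1.66 (SE 0.44, adjusted p = 0.129 by limma). The other 5 probe sets of Trim2 all had positive differences, from 0.13 to 0.58, at signals around or below the limit, and averaging all 6 gave a difference of 0.0017. No direction is given for Trim2.

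Trim46, which organises microtubules at the start of axons, had 4.37, 5.40, 4.33, 4.61 and 5.13 in allogeneic animals 1 to 5 and 5.71, 5.81, 5.59, 5.12 and 5.89 in syngeneic animals 1 to 5 (log2 difference -0.85, SE 0.24, adjusted p = 0.141 by limma). It was above background on 2 allogeneic and 4 syngeneic arrays. Trim16, a member without a RING finger, had 4.23, 5.47, 3.58, 4.20 and 4.88 in the allogeneic and 5.71, 4.98, 5.42, 5.38 and 5.50 in the syngeneic animals (difference -0.92, SE 0.32, adjusted p = 0.197). It was above background on 1 allogeneic array, that of animal 2, and on all 5 syngeneic arrays. In both genes part of the allogeneic values lay inside the syngeneic range. Trim80 was at 0 on the log2 scale on 4 of 5 allogeneic arrays, with 0.33 in animal 1, and had 0.83, 0, 1.18, 0.20 and 1.70 in syngeneic animals 1 to 5. All 10 values were under the limit, so no difference is given for it.

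**Figure D4:**
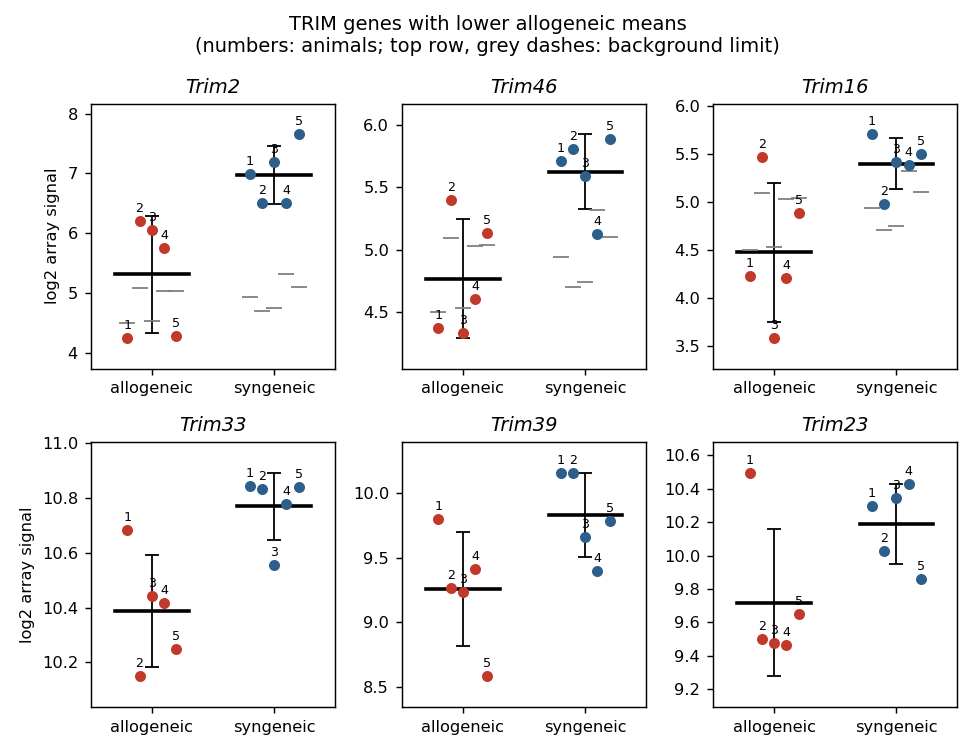
Log2 array signal in each animal (points, numbered) with means and SD for 6 TRIM genes of lower allogeneic mean; grey dashes in the upper row are each array's background limit. Trim2, Trim46 and Trim16 fall to or under the limit in part of the allogeneic arrays, while Trim33, Trim39 and Trim23 are well above it, with allogeneic animal 1 inside or above the syngeneic range in all 3.

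The 6 members with the brightest probe sets include Trim28 and Trim30a, described above, and Trim30a had the largest difference of them (0.32). The others had log2 differences between -0.19 and 0.18. Signals of different probe sets do not rank transcripts. Trim35, reported in mouse to promote apoptosis, had 12.41, 12.40, 12.56, 12.37 and 12.54 in allogeneic animals 1 to 5 and 12.54, 12.46, 12.50, 12.58 and 12.43 in syngeneic animals 1 to 5 (difference -0.046, SE 0.094). Trim27, a RING and PRY-SPRY protein that represses transcription, had 12.30, 12.40, 12.54, 12.25 and 12.16 in the allogeneic and 12.60, 12.62, 12.45, 12.19 and 12.51 in the syngeneic animals (difference -0.14, SE 0.12). The groups overlapped in both genes, and 5 of the 6 probe sets of Trim27 were negative. Trim59, a membrane-anchored member, had 11.43, 11.93, 12.00, 12.04 and 11.50 in the allogeneic and 12.03, 12.15, 12.02, 11.61 and 12.05 in the syngeneic animals (difference -0.19, SE 0.17). Trim8, which in mouse binds the cytokine signalling inhibitor SOCS1, had 12.01, 11.50, 12.20, 11.59 and 11.83 in the allogeneic and 11.82, 11.61, 11.52, 11.62 and 11.69 in the syngeneic animals (difference 0.18, SE 0.15). Allogeneic animals 1 and 5 were low for Trim59, and animals 1 and 3 were high for Trim8, within overlapping groups.

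Allogeneic samples varied more among themselves than syngeneic ones, in TRIM genes as in the rest. Over the 32 members above background on all arrays, the median SD of log2 signal was 0.31 in the allogeneic and 0.21 in the syngeneic group, and 26 of 32 had the larger SD in the allogeneic group. Over all 10455 genes above background on all arrays, the median SD was 0.31 in the allogeneic and 0.17 in the syngeneic group.

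Probe sets of the same gene often differed in sign. Of the 31 members with more than 1 probe set, 14 had probe sets on both sides of 0. The probe sets were all positive for 9 genes, Trim21, Trim30d, Trim30a, Trim34a, Trim12a, Trim12c, Trim6, Trim26 and Trim71. They were all negative for 8 genes, Trim33, Trim23, Trim41, Trim16, Trim59, Trim24, Trim36 and Trim61. The fainter Trim12c probe set differed by only 0.030 (SE 0.19).

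**Figure D5:**
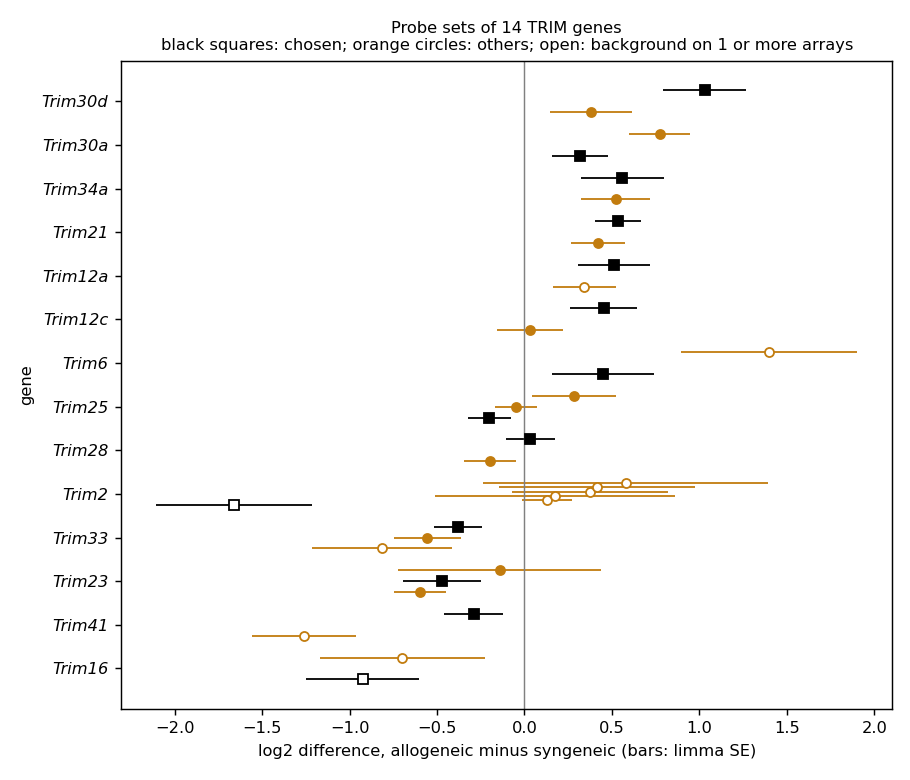
Log2 difference, allogeneic minus syngeneic, with limma's SE for every probe set of 14 TRIM genes; black squares are the chosen probe sets, orange circles the others, and open symbols those at background on 1 or more arrays. All probe sets of Trim21, Trim30d, Trim30a and Trim34a are right of 0, while the chosen probe set of Trim2 is at -1.66 and its other 5 are right of 0.

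Genes that work with TRIM proteins were read from 5 lists. Among 15 measured genes of ubiquitin activation and conjugation, 1 passed the test against 0.583% of all genes. It was Ube2l6, the conjugating enzyme for ubiquitin and ISG15, which rose, with means of 8.20 in allogeneic and 6.29 in syngeneic samples (log2 difference 1.90, SE 0.24, adjusted p = 0.00695 by limma). The ISG15-activating enzyme gene Uba7 differed by 0.55 (SE 0.15, adjusted p = 0.140). The list's median difference was 0.057.

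Of 17 measured genes of interferon receptors and signalling, 1 rose and 16 did not pass, where 0.506% of all genes were called higher. The gene that rose was Irf1, an interferon-induced transcription factor, with a log2 difference of 1.71 (SE 0.14, adjusted p = 0.000515 by limma). The list had 14 positive differences and a median of 0.21, and among those that did not pass were Irf9 (0.99, adjusted p = 0.0893), Irf7 (1.39, adjusted p = 0.0923) and the feedback inhibitor gene Socs3 (-1.27, adjusted p = 0.0893). Of 15 measured RNA and DNA sensor genes and their partners, 1 rose, against the same 0.506%, and 14 did not pass, with a list median of 0.16. The gene that rose was Ifih1, an RNA sensor (log2 difference 1.45, SE 0.16, adjusted p = 0.00316 by limma). Ddx58, the gene of RIG-I, differed by 0.49 (SE 0.17, adjusted p = 0.197).

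The 19 measured partners of Trim28 in silencing gave no call, with 16 negative differences and a median of -0.17. At an unadjusted p under 0.05 by limma, 7 were lower and 0 higher, against 7.40% of all genes lower. Of the 19, 2 had allogeneic values wholly below the syngeneic ones, where 1.90% of all genes did. They were the chromatin remodeller gene Smarcad1 (-0.59, SE 0.19) and the HP1 gene Cbx5 (-0.32, SE 0.13). The HUSH complex gene Tasor differed by -0.80 (SE 0.30). The adjusted p-values of Smarcad1, Cbx5 and Tasor were 0.174, 0.240 and 0.227 by limma.

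TRIM relatives with other names also gave 0 calls by limma among 11 measured genes. At an unadjusted p under 0.05 there were 3, 2 higher and 1 lower, against 9.47% and 7.40% of all genes. Pml, the organiser of nuclear bodies and itself interferon-inducible, differed by 0.45 (SE 0.19, adjusted p = 0.277), with means of 9.998 in allogeneic and 9.548 in syngeneic samples. Fsd1, a protein with a coiled coil and SPRY domain, differed by 0.76 (SE 0.16, adjusted p = 0.0748), with no overlap between groups, and Fsd2 was not above background on any array.

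Markers of other cells that the sort could hold were read beside the TRIM genes. Of 13 measured macrophage and monocyte markers 6 were positive and 7 negative, with a median log2 difference of -0.06. The log2 of their summed signal was between 12.6 and 13.3 in allogeneic and between 12.2 and 12.7 in syngeneic samples. Most of that sum came from 1 gene, Mpeg1, so it does not stand for the list. Allogeneic animal 1 had the highest sum, while the median deviation of the markers from their syngeneic means was -0.33 in that animal. Mpeg1, above background on all 10 arrays, had means of 12.63 in allogeneic and 11.95 in syngeneic samples (log2 difference 0.68, SE 0.22, adjusted p = 0.182 by limma). Cd14 was not above background on any array, and Adgre1 was above it on 3 allogeneic arrays and 0 syngeneic arrays. Of 5 measured NK cell markers 4 were positive, with summed levels of 9.93 to 10.7 in allogeneic and 9.44 to 9.95 in syngeneic samples, and Klrk1 and Ncr1 were not above background on any array. Nearly all of that sum came from Gzma and Prf1, so it does not stand for the list. Gzma, a granzyme gene of NK and cytotoxic T cells, was above background on all 10 arrays, with means of 9.92 in allogeneic and 8.86 in syngeneic samples (log2 difference 1.06, SE 0.25, adjusted p = 0.0995 by limma), the smallest p of any marker. Prf1, also above background on all 10 arrays, differed by -0.20 (SE 0.13). Stroma and endothelium markers had 8 of 9 positive and summed levels of 9.55 to 9.95 in allogeneic and 9.16 to 9.56 in syngeneic samples. Most of that sum came from 1 gene, Pecam1 (log2 difference 0.41, SE 0.16), so it does not stand for the list. Pdgfrb and Cxcl12 were not above background on any array. B-lymphoid progenitor markers had summed levels of 16.5 in all 5 allogeneic samples and 16.4 to 16.5 in syngeneic samples. Positive differences numbered 5 of 8 for T cell, 6 of 7 for granulocyte, 4 of 6 for dendritic cell and 2 of 5 for erythroid markers. None of the marker genes passed the test, and their part in the TRIM differences was not tested.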

How the data were processed

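Per the labels' protocols, RNA of sorted leukaemia cells from 10 animals was labelled with biotin after NuGEN amplification. The values deposited by the authors are linear intensities of 45101 probe sets on each array. The sources used here do not give the summarisation or scaling. They were log2 transformed, then quantile normalized across the 10 arrays. Gene symbols came from the platform annotation and were brought up to GRCm38.p6 through gene identifiers. Of the probe sets, 34945 had 1 symbol, 932 several, 9160 none, and 64 were controls. All 18193 genes were fitted with limma 3.58.1 (lmFit and eBayes) in R 4.3.3, with no filter on low values and Benjamini-Hochberg adjustment over all genes. SE and p of secondary probe sets come from a fit over all non-control probe sets. The 5 arrays per group limit the precision. The fit was tested on simulated data with independent genes and the same SD in both groups. The real groups differed in SD, a setting that this test did not cover. The 22 alternatives tried changed the normalization, probe set, filter, variance model, block or animals. Promoter sequences are from RefSeq, GRCm38.p6.

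Members, lists and markers were chosen with earlier results of these data known. Values per animal are given for the 15 members of smallest p, the 6 of highest mean signal and the chromosome 7 run. Trim14, Trim24, Trim26, Trim41, Trim44, Trim56 and Trim62 were added after their values were seen, as were the motif search and the reading of secondary probe sets. Same-numbered animals were not paired by the labels.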

Additional observations from a re-analysis of the deposited data

Results flagged for a closer look

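For 29 TRIM genes, each group of 5 animals was searched for a value standing apart. Of the 58 groups, 4 had one, where chance gives about 1 in 20. Trim23 stood at 10.5 in allogeneic animal 1, against 9.47 to 9.65 in the other 4 allogeneic animals. Trim33 stood at 10.55 in syngeneic animal 3, against 10.78 to 10.84 in the other syngeneic animals. Trim59 stood at 11.61 in syngeneic animal 4, against 12.02 to 12.15. Trim80 stood at 0.3338 in allogeneic animal 1, against 0 in the other 4, all below background.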

How the results depend on the processing

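The 58 TRIM genes gave 0 calls under the settings without quantile normalization, with median centring, with other probe sets, without moderation and with the replicate block. Calls of higher TRIM genes numbered 2 with genes above background on at least 3 arrays, 2 with the lower 50% of genes left out, 2 with trend and robust estimation and 2 with array weights, in each case Trim21 and Trim30d. There was 1 with values raised to the background limit (Trim30d) and 1 without allogeneic arrays 1, 3 and 4 together (Trim62, 1.40, adjusted p = 0.0412 by limma). Lower TRIM genes were called only without allogeneic animal 1. Leaving out 1 animal at a time gave 0 to 1 higher and 0 to 2 lower TRIM genes, a TRIM median of -0.12 to -0.046, 55 to 636 calls over all genes (636 with allogeneic animal 1 left out, 69 with allogeneic animal 4, and 57, 55 and 56 with syngeneic animals 1, 2 and 5) and 3 to 5 over the partner lists. The TRIM median was 0.034 without quantile normalization and -0.00057 with median centring.

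All genes called numbered 106, but 67 with the probe set of largest SD, 284 and 269 with the 2 filters in the order above, 228 with raised values, 307 with trend and robust estimation, 720 with array weights and 658 without the 3 arrays. The partner lists held 3 calls, but 6 and 5 with the filters, 7 with raised values, 6 with trend and robust estimation, 8 with array weights and 6 without the 3 arrays. With the replicate block, 14 genes and 0 partner genes were called. Same-numbered animals had deviations correlated from -0.21 to 0.35, and 2 of 5 allogeneic animals matched their own number best. With 5 numbers per group this does not decide whether the numbers pair the samples. The filters left fewer genes in the fit, and the SE of Trim21 also changed, from 0.1185 to 0.1106 and 0.105. The cause of these counts was not tested.

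Of the 29 TRIM genes followed, 26 values turned sign, none of them called. With the mean of probe sets the turned values were -0.67 for Trim14, 0.0017 for Trim2, 0.011 for Trim25, -0.081 for Trim28 and -1.0e-05 for Trim62. With the probe set of largest SD they were -1.45 for Trim14, 0.58 for Trim2, 0.28 for Trim25, 0.13 for Trim35, -0.20 for Trim28 and -0.43 for Trim62. With array weights they were -0.024 for Trim26, -0.065 for Trim28 and -0.066 for Trim56. Without quantile normalization they were -0.018 for Trim28 and -0.0015 for Trim56, and with median centring -0.052 and -0.036. Without the 3 arrays Trim56 was -0.32. Leaving out 1 animal gave -0.012 to 0.23 for Trim26, -0.031 to 0.12 for Trim28 and -0.091 to 0.12 for Trim56. The 7 genes of the chromosome 7 run were positive under all 22 settings, with Trim6 absent from the fit that left out the lower 50%. Of the TRIM genes, 32 were above background on all arrays, 31 with the highest control probe set as the limit and 38 with their 75th percentile.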

Other observations

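The members leave out 5 probe sets that carry a TRIM symbol together with another symbol. One shared by Trim30d and Trim30a had means of 7.95 in allogeneic and 7.26 in syngeneic samples, a log2 difference of 0.69 (SE 0.20, adjusted p = 0.149 by limma). Of 2 shared by Trim34b and Trim34a, one differed by 0.38 (SE 0.29) and the other by -0.15 (SE 0.42). The probe set shared by Trim30b and Gm38525 differed by 0.25 (SE 0.31).

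Trim62, a PRY-SPRY ligase outside the chromosome 7 run, had the widest spread among allogeneic animals of the members above background on all arrays. Its log2 signal was 5.04, 6.68, 5.92, 5.21 and 7.06 in allogeneic animals 1 to 5 and 5.28, 5.54, 5.43, 5.96 and 5.16 in syngeneic animals 1 to 5, a difference of 0.51 (SE 0.385, adjusted p = 0.536 by limma). Allogeneic animals 2 and 5 were the high ones. Its other 2 probe sets, at signals around the background limit, differed by -0.081 and -0.43.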
